A study of Mus musculus with 6 samples.

Results

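The array of fibroblasts 3 days after infection with the Tet3 treatment (3 dpi) was set against the array of untreated mouse embryonic fibroblasts (MEF), which were the starting cells. These are 2 of the 6 arrays of the series, with 1 array per group and no replicates. The submitters titled the 3 dpi sample as Tet3 induced neurons. Members of the comparison were chosen by a rule on signal: a probe was kept when it was well above background on at least 1 of the 2 arrays, which held for 33240 of 39417 probes (84.3%). After naming, 18118 of 20653 genes had a difference, 16547 of them measured on both arrays and 1571 known only as a bound because 1 array was not well above background.

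Both groups came from ICR mouse embryos of day 13.5 (E13.5). The treated fibroblasts were given adenoviral supernatants with polybrene for 8 hours on each of 2 successive days and were then kept in a low-glucose medium with 5% serum. Part of that medium was exchanged for neuronal medium containing 20 µM forskolin, an activator of adenylate cyclase, on days 3 and 5 after the second infection. Whether the 3 dpi cells were collected before or after the first exchange is not stated in the labels, so virus, Tet3, medium and forskolin cannot be told apart in this comparison. No array of fibroblasts given a virus without Tet3 was analysed here. The labels also do not say whether the RNA of an array came from 1 culture or from several. MEF are a mixed outgrowth of embryonic connective tissue, so any array of them can hold RNA of several cell types. In bulk RNA of this kind, fewer cells of a type and less RNA per cell cannot be told apart.

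Tet3 is one of the TET dioxygenases, which oxidise 5-methylcytosine in DNA and so open a route to loss of methylation. In conversion of fibroblasts to neurons, connective tissue cells are driven toward a neuronal state without passing through a stem cell. Fibroblasts are known for the matrix they secrete, for contractile actin bundles and for a division rate that follows growth factors, while neurons leave the cell cycle and build synapses and axons.

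Levels are given on the log2 scale of the deposited table, in which the 75th percentile of every array lies at 0. A difference is the 3 dpi level minus the MEF level, a gene is called higher or lower when it differs by at least 2-fold, and "at least" before a fold marks a bound. With 1 array a side there is no test and no p-value, and the only error available is that of the scanner software's error model, with a median of 0.20 (log2) for a difference. That error covers the array and not the spread between cultures. The scan is also confounded with the comparison, since scan 1 held the MEF and 1 dpi arrays and scan 2 held the 3 dpi array with those of 5 dpi, 7 dpi and neurons.

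At the 2-fold threshold, 2956 of 18118 genes were higher at 3 dpi (16.3%) and 1780 were lower (9.82%), so 62.4% of called genes were higher. The excess of higher genes lay among dim genes. Genes were ordered by mean level and split into 10 groups of like size. In the second dimmest group the median difference was 0.74 and 38.2% were higher, while in the brightest group the median was -0.04, with 6.29% higher and 8.06% lower. Among the 8748 brighter genes, with a mean level of at least -1, 611 were higher (6.98%) and 860 lower (9.83%). The share of called genes that were higher was 42.7% after quantile normalization, 45.8% with normexp background correction, 40.6% after centring on the median and 41.5% among brighter genes. The median difference over all genes was 0.20, against 0.06, 0.12, -0.10 and -0.01 under those settings, and list medians below can be read against it. List counts below can be read against the 16.3% of all genes that were higher and the 9.82% that were lower. On the 3 dpi array 83.28% of probes were well above background and on the MEF array 75.49%, and the part of this gap in the dim-gene excess was not tested.

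**Figure D1:**
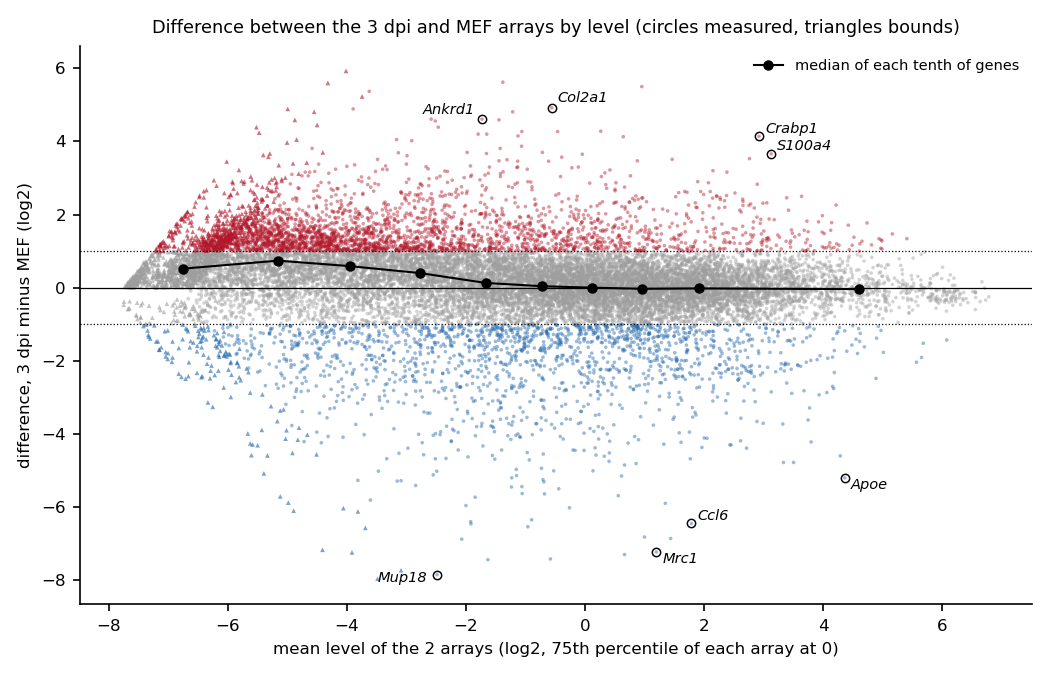
Difference between the 3 dpi and MEF arrays (y axis, log2) against the mean level of both (x axis, log2 with the 75th percentile of each array at 0), 1 point per gene. Circles were measured on both arrays, triangles are bounds, red and blue mark at least 2-fold higher and lower, and the black line joins the medians of 10 groups of like size: it lies at 0.74 in the second dimmest group and at -0.04 in the brightest.

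Tet3 itself was higher at 3 dpi by 2 of its 3 probes. The brightest Tet3 probe read -0.22 in MEF and 1.74 at 3 dpi, a 3.89-fold difference, and it read 1.13 at 1 dpi, 2.57 at 5 dpi, 0.07 at 7 dpi and -0.72 in primary neurons. A Tet3 probe that was not well above background in MEF read -1.13 at 3 dpi, at least 44.2-fold higher. The remaining Tet3 probe read -3.19 in MEF and -2.87 at 3 dpi, 1.24-fold higher with an array error of 0.21. The 3 dpi array thus lay between those of 1 and 5 dpi on both probes that moved. The labels do not say which of these probes match the introduced sequence.

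The other genes of DNA methylation split in both directions, with 4 of 21 higher, 4 lower and a median difference of 0.04 (1 higher, 4 lower and -0.26 after centring on the median). Over all genes 16.3% were higher and 9.82% lower. Uhrf1, which guides maintenance methylation to newly copied DNA, read 0.16 in MEF and 1.74 at 3 dpi, a difference of 1.58. Dnmt1, the maintenance methyltransferase, differed by 0.82. The de novo methyltransferase Dnmt3a was 6.07-fold lower, at 1.24 in MEF and -1.36 at 3 dpi, and its 3 dpi level was the lowest of the 6 arrays, with -0.29 at 5 dpi and 1.40 at 7 dpi. Its relative Dnmt3b differed by -0.05. Of the other TET enzymes, Tet1 differed by 1.02 and Tet2 by -1.01 on the log2 scale, each at the edge of the threshold. Tdg, the glycosylase that removes oxidised cytosines, differed by 0.08. Apobec1, a cytidine deaminase that macrophages also express, differed by -2.62, and the methyl-CpG binding protein Mbd1 by -1.10. Gadd45g differed by 1.25, Gadd45b by 0.62 and Gadd45a by -0.13.

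Both arrays were read on 23 fibroblast genes, all of which had a value. The MEF sample is labelled as fibroblasts and the 3 dpi sample as induced neurons. On the 3 dpi array all 23 were well above background, and on the MEF array 22 were. The list split evenly at 3 dpi, with 7 members higher and 7 lower. Vim, the intermediate filament of mesenchymal cells, read 5.72 in MEF and 6.09 at 3 dpi, and the mesenchymal transcription factor Prrx1 read 3.23 and 3.21. Both differences were under 2-fold. S100a4 was 12.6-fold higher (1.30 and 4.96), Col6a3 differed by 2.12, Ly6a by 1.82 and the surface glycoprotein Thy1 by 1.47. Lower were the matrix protein Dpt (1.47 and -2.25, a difference of -3.72) and the surface markers Pi16 (-2.81), Dpp4 (-2.04), Cd34 (-1.74) and Pdgfra (-1.64). Col14a1, a collagen that sits on fibrils, was 16.8-fold lower by its brighter probe and differed by -1.78 on its other probe. Fap, a surface protease of activated fibroblasts, differed by -2.01. Neither direction was general: Pdgfrb differed by 0.78 and Col6a1 by -0.51.

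Among all genes, those furthest higher at 3 dpi included a cartilage collagen and a prostaglandin synthase. Ptgs2, the inducible cyclooxygenase, differed by 4.81, with levels of -3.62 in MEF, 1.19 at 3 dpi and 1.09 at 5 dpi. Ankrd1, a nuclear ankyrin protein controlled by YAP in many cells, was 24.4-fold higher and reached its highest level of the series, 3.27, at 5 dpi. Several others were dim in MEF. Crct1, a cornified envelope gene, was at least 60.8-fold higher, Coch at least 48.5-fold, the chemokine Cxcl9 at least 37.6-fold and the late cornified envelope genes Lce1h and Lce1i at least 29.7-fold and 28.1-fold. Mogat2, an acyltransferase of triglyceride synthesis, was measured on both arrays at -6.31 and -0.94. Tfpi2, an inhibitor of the tissue factor pathway, read -6.34 and -1.45, and the protease Klk8 -4.89 and -0.28. Emcn was at least 24.1-fold and the chemokine receptor Cxcr6 at least 21.9-fold higher. For Ptprb the probes disagreed in size, with differences of 4.56 and 1.58.

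A second ranking took only genes measured on both arrays that reached the 75th percentile on at least 1 of them, and it added 11 genes on the higher side. Cd109, a surface protein that binds TGF-beta, read -1.87 and 2.40 and was 19.4-fold higher. Cck, a peptide hormone precursor, differed by 4.27, and the interferon-inducible genes Apol9b and Ifi44 by 4.27 and 4.20. The gap junction protein Gjb2 read -3.89 in MEF, -3.44 at 1 dpi, 0.30 at 3 dpi and -5.53 at 5 dpi, so its high level was seen on the 3 dpi array alone. The matrix glycoprotein Tnc differed by 4.15 and its other probe by 4.93. Crabp1, a carrier of retinoic acid, read 0.85 in MEF and 5.00 at 3 dpi and was 17.7-fold higher. Actg2, Sncg, Cxcl10 and Grem1 completed them, at differences of 4.13, 3.87, 3.81 and 3.70.

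The genes furthest lower included secreted proteins of the major urinary and Reg families and macrophage genes. Mup18 read 1.44 in MEF and -6.41 at 3 dpi, a difference of -7.85, and Mup17 was at least 249-fold lower. Reg3g was at least 213-fold lower, and Reg1, at 1.32 and -5.15, was 88.2-fold lower. The macrophage mannose receptor Mrc1 read 4.81 and -2.41. Clec10a, a macrophage lectin, was at least 151-fold lower. Trf, the serum transferrin, read 4.87 in MEF and -1.99 at 3 dpi and was 116-fold lower, with the other probe at -7.18. Nxpe5 was 174-fold lower, Wfdc17 113-fold and Wfdc18 84.5-fold. Folh1, a carboxypeptidase, was at least 94.9-fold lower. Probes disagreed in size for F13a1 (-6.88 and -1.65) and for Csf2rb2 (-6.54 and -3.23). The second ranking added Pgap6 (-6.35), Vmn1r48 (-6.02), Cd200r1 (-5.96) and the scavenger receptor Stab1 (-5.90).

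**Figure D2:**
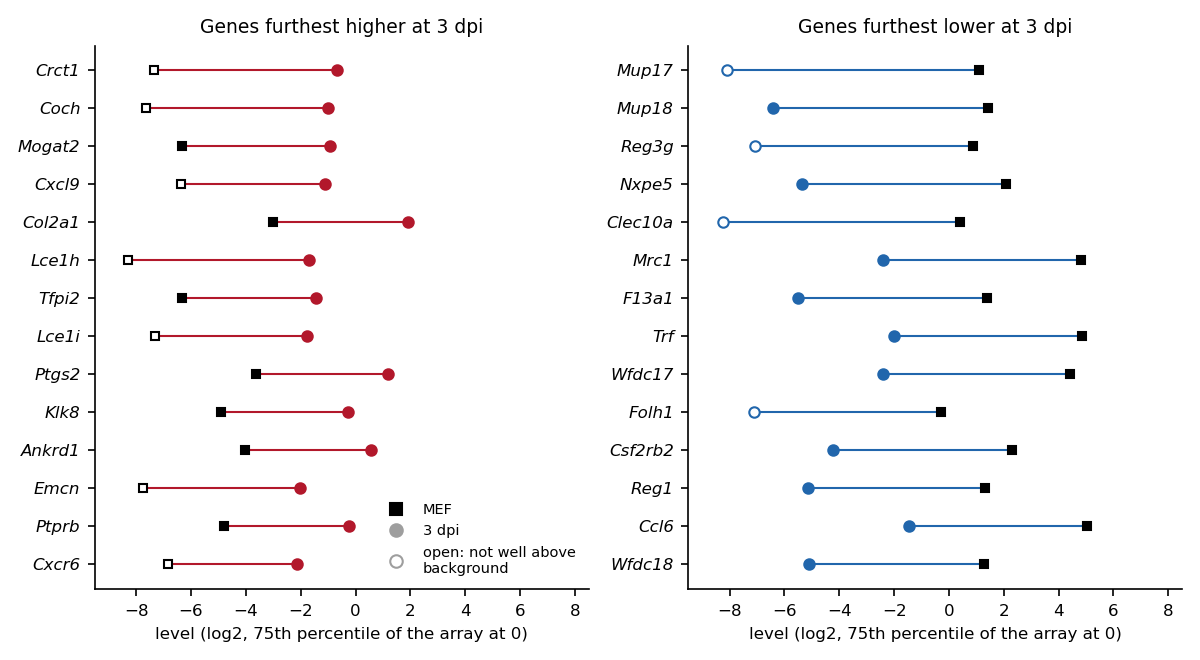
Levels (x axis, log2 with the 75th percentile of the array at 0) of genes furthest higher and furthest lower at 3 dpi, with MEF as squares and 3 dpi as circles. Open symbols were not well above background, as for Crct1 in MEF and Mup17 at 3 dpi, and Col2a1 reaches the highest 3 dpi level of the left panel at 1.90.

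Mitotic genes passed 2-fold at 3 dpi in larger shares than replication genes. Of 16 mitotic kinases and checkpoint genes, 14 were higher and none lower, and their median was 1.79 (12 were higher after centring on the median). All 17 mitotic kinesins and spindle genes with a value were higher, with a median of 1.62, and so were 9 of 15 kinetochore genes, whose median was 1.42. The replication list, with 22 genes, had 5 higher and 1 lower and a median of 0.63. These counts stand against a background of 16.3% of all genes higher, and against 6.98% for brighter genes, among which 10 of 11 mitotic kinases, 10 of 10 kinesins, 2 of 6 kinetochore genes and 1 of 14 replication genes were higher and 1 replication gene was lower. After centring on the median 2 of the 22 replication genes were higher.

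Cdc20, the activator that starts anaphase, read 0.97 in MEF, 1.90 at 1 dpi, 3.21 at 3 dpi, 2.74 at 5 dpi and 2.29 at 7 dpi, and was 4.71-fold higher at 3 dpi. Plk1, the polo kinase of mitotic entry, read -0.73 in MEF and 1.17 at 3 dpi, a 3.72-fold difference. Ube2c, the ubiquitin enzyme that works with Cdc20, was 5.11-fold higher, and Anln, the actin-binding scaffold of the cleavage furrow, 5.50-fold higher. On all 4 genes the 3 dpi array was the highest of the 5 arrays of fibroblasts and treated fibroblasts. Aurka differed by 1.81, Bub1 by 1.90, the inner centromere protein gene Incenp by 0.14. Of the kinesins, Kif20a differed by 1.87, Kif4 by 1.78 and Kif11 by 1.15, and the kinetochore gene Ska3 by 2.57 while the centromeric histone Cenpa differed by 0.28.

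Replication genes were more mixed. Mcm10 differed by 1.97, Orc1 by 1.92, Cdc6 by 1.28 and Gins2 by 1.26. The helicase subunits Mcm3 and Mcm4 differed by 0.03 and 0.16, and Pcna, the sliding clamp, read 3.44 in MEF and 3.29 at 3 dpi. Lig1, the ligase that joins Okazaki fragments, differed by -1.23. Rrm2, the regulated subunit of ribonucleotide reductase, differed by 1.91, and 3 of 8 genes of nucleotide supply were higher. Among transcription factors Foxm1, the activator of mitotic genes, differed by 1.76, E2f8 by 1.71 and Myc by 1.82, whereas E2f1 differed by 0.25 and Mybl2 by 0.25. Rbl2, a pocket protein of quiescent cells, differed by -1.01. Of 16 cyclin and kinase genes 8 were higher: Ccnd1, the growth factor-responsive D cyclin, read -1.24 and 1.79 and was 8.21-fold higher, Ccnb1 differed by 1.54 and Ccna2 by 1.85, while Ccnd3 differed by -0.86. Mki67, the proliferation marker, differed by 1.50 and the topoisomerase Top2a by 1.96. Fancd2, which acts in repair of crosslinks, differed by 2.23, and 7 of 14 repair genes were higher and 0 lower.

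The promoters of these genes carry letters that are known from mitotic genes. Promoter windows from 250 bases before to 50 after the first listed start of a gene were taken from RefSeq on the build GRCm38.p6, and each motif was searched on both strands. The cell cycle homology region, a site read by the DREAM and FOXM1-MuvB complexes, was taken as TTTGAA or TTCGAA, and the CCAAT box as its own letters. The cell cycle homology letters were in 8 of 14 windows of mitotic kinases (57.1%), 14 of 16 of kinesins (87.5%) and 9 of 14 of kinetochore genes (64.3%), against 19.4% of 27025 windows of all genes and 26.3% of replication genes. CCAAT was in 64.3%, 62.5% and 71.4% of the same lists and in 37.9% of all windows. It did not set the mitotic lists apart from replication genes, of which 68.4% held it. For replication genes, 1 of 4 E2F-like words (TTTGGCGC, TTTCCCGC, TTTCGCGC or TTTGCCGC) was in 10 of 19 windows (52.6%), against 2.32% of all. A match is a description of the letters and not a bound site. Stretches before the start that hold both kinds of letters also included those of Kif22 and Ect2, which are not shown. The stretches of Cdc20, Ube2c and Kif11 are shown as examples, with CCAAT (or ATTGG on the other strand) and the cell cycle homology letters (TTTGAA, or TTCAAA on the other strand) in capitals. They are read from chr4:118437344-118437406 on the minus strand, chr2:164769831-164769915 on the plus strand and chr19:37376327-37376378 on the plus strand.
Cdc20: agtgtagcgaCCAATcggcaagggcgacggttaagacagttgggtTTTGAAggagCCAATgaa
Ube2c: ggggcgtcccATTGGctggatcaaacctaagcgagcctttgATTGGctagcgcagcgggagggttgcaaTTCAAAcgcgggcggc
Kif11: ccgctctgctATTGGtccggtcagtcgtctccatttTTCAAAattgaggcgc

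CDK inhibitors and targets of p53 went both ways. Of 18 CDK inhibitor and p53 target genes 8 were higher and 3 lower, with a median of 0.79, and all 18 were brighter genes. Cdkn1a, the p53-induced inhibitor p21, read 1.54 in MEF, 3.16 at 1 dpi, 3.66 at 3 dpi and 3.83 at 5 dpi. Cdkn2b was 5.62-fold higher and Cdkn2a differed by 1.09. Perp, a p53 target of desmosomes and cell death, was 12.5-fold higher at 3 dpi, below its 1 dpi level (2.12 against 1.78). Mdm2 differed by 1.28, Ccng1 by 1.57 and Pmaip1 by 1.71. The 3 lower genes were Cdkn1c, the imprinted inhibitor p57, which read 5.42 in MEF and 2.13 at 3 dpi, Cdkn1b (-1.15) and Sesn1 (-2.72), a sestrin. Of the 8 higher members 1 (12.5%) had its highest level of the 5 fibroblast arrays at 3 dpi, against 53.1% of all higher genes.

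About as many enzymes of cholesterol synthesis passed 2-fold as did not. Of 21 enzymes 11 were higher and none lower, their median was 1.13, and 20 of the 21 were brighter genes. Lss, which closes the sterol rings, read -1.02 in MEF, -0.96 at 1 dpi, 0.97 at 3 dpi, -1.58 at 5 dpi and -1.17 at 7 dpi, and at 3 dpi was 3.98-fold higher. Hsd17b7 differed by 1.78, Sc5d by 1.70, Nsdhl by 1.59, Cyp51 by 1.52 and Acat2 by 1.36. Fdft1, squalene synthase, differed by 1.60 on its brighter probe and by -0.57 on its other. On all 11 higher enzymes the 3 dpi level was the highest of the 5 fibroblast arrays, and for 8 of the 11 (72.7%) it was at least 2-fold above both 5 and 7 dpi, against 10.7% of all higher genes. The remaining enzymes were within 2-fold, among them Sqle (0.71), Hmgcs1 (0.66), Tm7sf2 (-0.16) and Ggps1 (-0.45). After centring on the median the count of higher enzymes was 8.

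Genes around the pathway differed one by one. Insig1, which holds the SREBP activator in the endoplasmic reticulum, differed by 1.53, and the activator Srebf2 differed by 0.63 on its brighter probe and by -1.95 on another. Scd1 differed by 1.49 and Fads2 by 1.46, whereas Acly and Acaca differed by 0.34 and 0.07. With the mean over probes Acly and Acaca differed by 0.83 and 0.71. Sterol efflux and lipoprotein genes were lower, 7 of 11, with a median of -1.16 and 1 member higher. Apoe, the apolipoprotein of macrophages and glia, read 6.96 in MEF and 1.77 at 3 dpi, 36.7-fold lower, with a spot flagged as an outlier on at least 1 array. Abca1, the cholesterol exporter, read 3.57 in MEF, -0.40 at 3 dpi, 1.89 at 5 dpi and 2.84 at 7 dpi. Lpl differed by -4.30 and Apoc1 by -4.45. Several of these are macrophage products, and the macrophage genes described below were lower on the same array; their part in these values was not tested. The higher member was Ch25h, the cholesterol 25-hydroxylase that interferon induces, at 2.11.

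A sterol regulatory element, taken as TCACNCCAC on either strand, was in 1 of 16 windows of the cholesterol list (6.25%), that of Hmgcs1, against 1.22% of all windows. CCAAT, the site of NF-Y, a factor known to act beside SREBP, was in 14 of the 16 (87.5%), against 37.9% of all. The Hmgcs1 stretch is shown because it holds both, in capitals, at chr13:119690165-119690232 on the plus strand.
Hmgcs1: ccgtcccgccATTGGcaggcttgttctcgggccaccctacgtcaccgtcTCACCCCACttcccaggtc

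Glycolysis genes were higher in part, and the other large housekeeping sets stood near MEF. Of 20 glycolysis genes 8 were higher (4 after centring on the median) and 0 lower, with a median of 0.82. Pfkp, a phosphofructokinase isoform, read -1.87 and 0.26 and was 4.36-fold higher. Pfkl differed by 1.68, the pyruvate kinase Pkm by 1.39, the glucose transporter Slc2a1 by 1.32 and Pgk1 by 1.16. Gapdh differed by 0.16 on its chosen probe and by 1.07 with the mean over probes, and Hk2 differed by -0.34. Of 20 hypoxia genes 2 were higher (5 with the mean over probes) and 1 lower, with a median of 0.29 (-0.01 after centring on the median). Egln3, an oxygen-sensing prolyl hydroxylase, was 16.2-fold higher, at -4.92 and -0.90, and Ddit4 differed by 1.63, whereas Car9 differed by 0.22 and Bnip3 by 0.34 with its other probes up to 1.90. The letters ACGTG, the core of a hypoxia response element and also of other E-box-like sites, were in 9 of 19 glycolysis windows (47.4%) and 19.7% of all. None of 20 oxidative phosphorylation genes and none of 26 cytosolic ribosomal protein genes passed 2-fold, with medians of 0.04 and -0.05. Their signs turned under centring on the median and quantile normalization, to -0.26 and 0.09. Of 15 proteasome genes 1 was higher, and their median was 0.53.

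Genes of the contractile apparatus were higher in the smooth muscle list, in which all 16 members passed 2-fold, with a median of 1.56. Cnn1, calponin, read -0.86 in MEF, 1.40 at 1 dpi, 2.62 at 3 dpi, 1.89 at 5 dpi and -1.59 at 7 dpi, and was 11.1-fold higher at 3 dpi. Tagln, transgelin, read 4.32 and 5.63, and Acta2, smooth muscle actin, 4.74 and 6.08 with a spot flagged as an outlier on at least 1 array. The tropomyosin Tpm2 and the smoothelin gene Smtn each differed by 1.80. Dim members were Myh11, Des and Myocd, known only by bounds of 1.82, 3.42 and 1.62, and Synpo2 differed by 1.09 on its brightest probe and by -1.44 on another. The 10 brighter members were all higher. With normexp 13 of the 16 passed, with the mean over probes 13 and after centring on the median 11.

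Targets of YAP and SRF, which answer to actin tension, were higher in 7 of 18 cases and lower in none, at a median of 0.81. Ccn2, connective tissue growth factor, read 2.39 and 4.89, and vinculin, Vcl, differed by 2.19. Ccn1 differed by 0.60 and Thbs1 by 0.04, and the coactivators Yap1 and Wwtr1 by 0.22 and -0.39. Of 13 actin regulators 6 were higher, among them Fhl1 (3.30). Of 15 integrins 7 were higher (3 with normexp) and 1 lower: Itga3 differed by 2.87, the fibronectin receptor subunit Itga5 by 1.51 and Itgb1 by 1.01, while the laminin receptor subunit Itga6 differed by -2.04. Skeletal and cardiac muscle genes had 10 of 17 higher and a median of 1.46, but only 2 of the 17 were brighter genes. The brightest, Acta1, differed by 2.25, Tnnt2 by 3.61, and the muscle regulators Myog and Myod1, each with a flagged spot, by 1.37 and 0.50.

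The CArG box, the site of SRF, was found by its usual pattern in 2 of 12 windows of the smooth muscle list (16.7%) and in 1.57% of all windows. Those of Cnn2 and Myl9, which were 2.29-fold and 2.13-fold higher, are shown with the box in capitals, at chr10:79988534-79988563 and chr2:156775293-156775322, both on the plus strand.
Cnn2: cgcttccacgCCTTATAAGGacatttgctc
Myl9: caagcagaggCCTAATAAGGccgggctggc

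Matrix genes went different ways by class. Fibrillar collagens and their processing enzymes stayed near MEF, with 1 of 19 higher, 2 lower and a median of -0.29. Col1a1 read 6.70 and 6.43, Col1a2 6.54 and 6.08 and Col3a1 6.86 and 6.26. The exceptions were the lysyl oxidase-like enzyme Loxl3 (2.15), the hydroxylase Plod2 (-1.25) and Adamts2 (-2.07, with its other probe at -0.02). Small leucine-rich proteoglycans, which coat collagen fibrils, were lower in 8 of 11, with a median of -2.19. Dcn, decorin, read 5.51 in MEF, 5.49 at 1 dpi, 2.81 at 3 dpi, 5.79 at 5 dpi and 6.40 at 7 dpi. Lum differed by -2.19, Ogn by -2.70, Podn by -2.83 and Epyc by -2.97. Biglycan, Bgn, differed by 1.43, the 1 member that was higher.

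In the elastic fibre list 6 of 16 were lower and 1 higher. Mfap2 read 4.92 and 2.03, Fbln1 differed by -2.48, Mfap4 by -2.32 and elastin, Eln, by -2.25, while fibrillin, Fbn1, differed by -0.15. The latent TGF-beta binding protein Ltbp2 was higher by 1.37. Basement membrane genes had 5 of 16 higher and 2 lower. Col4a1 and Col4a2, the chains of its network collagen, differed by 1.50 and 1.62, Lama5 by 1.81 and Nid2 by -1.71. Fibronectin, Fn1, read 6.07 and 6.33.

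Cartilage genes split. Col2a1, the main collagen of cartilage, read -3.02 in MEF, -4.82 at 1 dpi, 1.90 at 3 dpi, -3.44 at 5 dpi and -5.35 at 7 dpi, and was 30.2-fold higher at 3 dpi. Col10a1, the collagen of hypertrophic cartilage, was 12.7-fold higher, and Acan, aggrecan, also passed 2-fold. Col2a1 and Col10a1 were high on the 3 dpi array alone among the 6 arrays. Matn3, a cartilage matrilin that was not well above background in MEF, differed by a bound of 2.24. Other cartilage genes did not pass 2-fold or were lower: Sox9, the master regulator, differed by 0.49, Col9a1 by 0.34, Col11a2 by 0.20 and Comp by 0.12, Col9a3, Cnmd and Ucma were below background on both arrays, and Matn1 was at least 4.83-fold lower. In all 4 of 17 cartilage genes were higher and 3 lower, and the summed level of the list was 14.5 in MEF and 19.8 at 3 dpi.

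Proteases and their inhibitors had 9 of 21 members higher and 1 lower. The urokinase receptor Plaur differed by 2.50, urokinase, Plau, by 1.79, the collagenase Mmp13 by 1.94, Mmp10 by 2.64 and the inhibitor Timp1 by 1.57. Mmp9, a gelatinase of macrophages and other cells, was the 1 lower member, at 1.29 and -3.23. The fibroblast gelatinase Mmp2 differed by -0.41.

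Of the 25 genes of the EGF and FGF list 9 were higher and 3 lower, and among its 11 brighter members 3 were higher and 1 lower. Ereg, epiregulin, read -3.12 and -0.33 and was 6.89-fold higher, Hbegf differed by 2.47, Nrg1 by 1.74 and Areg by a bound of 2.67. Etv4, an ETS factor induced by growth factor signalling, differed by 3.46, and Dusp4 and Spry4, feedback inhibitors, differed by 2.07 and 1.36. Dusp6, Spry1 and Etv5 differed by 0.05, 0.07 and 0.43. Of the FGF ligands Fgf18 differed by -2.16. Fosl1, a Fos family factor, was 16.5-fold higher, at -5.19 and -1.14, while Fos differed by -1.10 and Jun differed by -0.27.

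In the TGF-beta list 5 of 18 were higher (3 with normexp) and 2 lower, beside 16.3% and 9.82% of all genes. The activin subunit Inhba read -0.91 and 1.95 and was 7.29-fold higher, and Inhbb differed by 1.89. Grem1, an extracellular BMP antagonist, read -2.57 and 1.14. The receptors Tgfbr1 and Tgfbr3 differed by -1.71 and -1.52. In the BMP list 6 of 21 were lower and 1 higher. Gdf10 read 1.66 and -3.78, a difference of -5.44, Bmp2 was 5.07-fold lower, Id2 differed by -1.52 and Id4 by -1.40, while Id1 and Id3 differed by 0.79 and 0.49. In the Wnt list 9 of 26 were lower and 5 higher (1 higher with normexp). The secreted Wnt inhibitors Sfrp1, Sfrp2 and Sfrp4 differed by -2.43, -2.15 and -2.65, and Lgr5, a receptor for R-spondins, by -2.11. Of the R-spondin ligands Rspo1 differed by -3.71 and Rspo2 by 2.57. Axin2, a feedback target, differed by -1.40 on its brighter probe and by 0.29 on its other.

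The growth axis of IGF was lower in 6 of 15 genes, with 2 higher. Igf1 read 5.19 in MEF, 3.98 at 1 dpi, 1.46 at 3 dpi, 2.37 at 5 dpi and 3.11 at 7 dpi, 13.3-fold lower at 3 dpi. The binding proteins Igfbp2, Igfbp3, Igfbp4 and Igfbp5 differed by -2.80, -2.87, -2.51 and -1.74, and Igfbp6 differed by -0.08. Stc2, which restrains release of IGF, differed by 3.00, and Igf2bp1, an RNA-binding protein of embryonic cells, by 2.12. Of 16 imprinted growth regulators 7 were lower and 2 higher. Besides Cdkn1c they included Dlk1, which read 6.13 and 3.65, Plagl1 (-1.91), Mest (-1.41, with a flagged spot) and Zim1 (-2.29). Igf2 differed by -0.79. Meg3 differed by -1.20 on its brightest probe, with its other probes up to 0.35. On 6 of the 7 lower genes the 3 dpi level was the lowest of the 5 fibroblast arrays (85.7%), against 56.9% of all lower genes.

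Of 14 retinoid genes 6 were lower and 3 higher, and the other 5 were within 2-fold. Cyp26b1, which degrades retinoic acid, read 2.51 in MEF and -1.68 at 3 dpi, 18.4-fold lower, and was back at 0.92 at 5 dpi and 2.77 at 7 dpi. Dhrs3, a retinal reductase, was 7.60-fold lower and Rarb, a receptor that retinoic acid induces, 6.58-fold lower. Crabp1 was the furthest higher of the list, and Crabp2 differed by 0.07. On 5 of the 6 lower genes the 3 dpi level was at least 2-fold below both 5 and 7 dpi (83.3%), against 25.9% of all lower genes.

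Macrophage genes were lower as a group, 23 of 24, with a median of -3.91 against a background of 9.82% lower. Csf1r, the receptor for the macrophage growth factor, read 5.91 in MEF, 2.26 at 1 dpi, 1.69 at 3 dpi and 0.11 at 5 dpi, 18.6-fold lower at 3 dpi by its brightest probe and by -1.03 (log2) on the probe that differed least. C1qa, a complement subunit made by macrophages, read 4.60 and 0.31. Lyz2 differed by -4.25, Tyrobp by -4.19, Trem2 by -4.39 and Ptprc, the leukocyte antigen CD45, by -2.70. Itgam differed by 0.85 on its brightest probe and by -1.27 on the lowest of its 3. Of the 25 macrophage genes with a probe, 24 were well above background in MEF and 25 at 3 dpi. The summed level of the list was 408 in MEF, 87.9 at 1 dpi, 45.2 at 3 dpi, 13.2 at 5 dpi and 9.88 at 7 dpi. None of the 23 had its lowest level of the 5 fibroblast arrays at 3 dpi.

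Genes shared with macrophages were lower in part, and how far macrophage RNA accounts for each was not tested. Of 16 lysosomal genes 8 were lower and 0 higher, with a median of -1.02: the cathepsins Ctsd and Ctsb differed by -1.52 and -1.43 and the hexosaminidase Hexa by -1.90, while Ctsk differed by 0.68. Of 20 complement and coagulation genes 12 were lower and 2 higher, with a median of -1.39. C3, the central component, read 3.61 and 0.12, properdin, Cfp, differed by -3.12, C4b by -2.61 and C1s1 by -2.31.

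Interferon-stimulated effectors were higher in 10 of 19 genes, with 1 lower and a median of 1.27. Isg15, the ubiquitin-like antiviral protein, read 1.48 in MEF, 3.96 at 1 dpi, 4.31 at 3 dpi, 4.77 at 5 dpi and 4.19 at 7 dpi. Usp18, which removes it, differed by 2.86, Oasl1 by 3.29, Ifit1 by 2.45 and Xaf1 by 1.85. Oas2, at -1.01, was the 1 lower member, and Ifit2 and Ifi27 differed by -0.17 and -0.40. Of the 10 higher members 1 had its highest level of the 5 fibroblast arrays at 3 dpi, against 53.1% of all higher genes. Among sensors and factors Irf7, the amplifier of type I interferon, was 10.1-fold higher, at -3.59 and -0.26. Irf8, a macrophage factor, read 2.37 and -1.62. Irf5 differed by -2.09 and the receptor chain Ifnar1 by -2.56 on its brightest probe and -0.53 on another. The transcript of interferon beta, Ifnb1, was below background on both arrays. Class I antigen presentation stayed near MEF, with 1 of 12 higher and a median of 0.09 (-0.20 after centring on the median): H2-K1 differed by 0.01, B2m by -0.09 and the peptide transporter Tap1 by 1.67. Of 12 interferon-gamma GTPases 4 were higher, among them Irgm1 (1.65) and Tgtp1 (1.92).

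An interferon-stimulated response element, taken as GAAA, any 2 bases and GAAA on either strand, was in 7 of 14 windows of the effectors and in 3.49% of all. The stretches of Oas1a and Bst2 hold 2 matches each and are not shown. Matches are printed in capitals, and those that overlap as 1 run. The stretches of Ifit1, Ifit3 and Isg15 are shown as examples with more than 1 match each. They lie at chr19:34640775-34640823 and chr19:34583363-34583426 on the plus strand and chr4:156200865-156200906 on the minus strand. Ifit1 was 5.47-fold, Ifit3 3.72-fold and Isg15 7.09-fold higher. Windows with a match also included Oas1a and Rsad2, whose genes differed by 0.32 and 0.55.
Ifit1: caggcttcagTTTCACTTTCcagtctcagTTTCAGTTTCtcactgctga
Ifit3: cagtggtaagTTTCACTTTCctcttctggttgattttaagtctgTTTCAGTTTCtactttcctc
Isg15: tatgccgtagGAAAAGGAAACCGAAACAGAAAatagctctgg

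Chemokines went both ways, 10 of 22 higher and 7 lower. Ccl2, which draws monocytes, read 1.00 in MEF, 4.53 at 3 dpi and 5.50 at 7 dpi, 11.5-fold higher at 3 dpi, and Ccl7 differed by 2.38. Cxcl10 and Cxcl9, induced by interferon, were among the furthest genes. Ccl6, Ccl8 and Ccl9, which macrophages make, differed by -6.45, -4.37 and -2.68. Cxcl12, a stromal chemokine, differed by 0.09. Among cytokines the alarmin Il33 read 2.63 and -1.98 and its receptor Il1rl1 -0.71 and 2.04. Saa3 differed by -4.16 and Il6 differed by 0.21. In the prostaglandin list Ptgs2 was the 1 higher member of 16, and 6 were lower. None of the 5 brighter members passed 2-fold, and the list median turned from -0.49 to 0.34 among them. The thromboxane synthase Tbxas1 differed by -5.45, the prostaglandin D synthase Hpgds by -4.33, and the degrading enzyme Hpgd by -2.43, while the E synthase Ptges differed by -0.80.

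Pan-neuronal genes were higher in 17 of 30, beside 16.3% of all genes, with 2 lower and a median of 1.20, but most were dim. Of the 10 brighter members 3 were higher, with a median of 0.36, and with normexp background correction 8 of the list were higher. Snap25, a SNARE protein of transmitter release, read 1.04 in MEF, 2.69 at 1 dpi, 3.50 at 3 dpi, 2.16 at 5 dpi and 4.05 in neurons. Tubb3, the neuronal beta tubulin, read -0.85 in MEF, 0.81 at 3 dpi, 2.46 at 7 dpi and 4.09 in neurons. Stmn2 and Uchl1 were 9.46-fold and 9.09-fold higher, at 3 dpi levels of -1.78 and -0.72 against 4.29 and 3.07 in neurons. Dcx, of migrating neurons, differed by -0.25, Syn1 by -0.43 and Syp by 0.06, Elavl3 and Nefh were below background on both arrays, and Elavl4 differed by -1.49. Of the 17 higher genes 2 had their highest level of the 5 fibroblast arrays at 3 dpi (11.8%). The summed level of the list was 33.3 in MEF, 52.0 at 3 dpi, 86.6 at 7 dpi and 307 in neurons. Summed levels add values on the linear scale, so bright members such as Snap25 weigh most.

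Most factors that specify neurons were at low levels on both arrays. Of 18 with a value 6 were higher (1 with normexp) and 0 lower, with a median of 0.71, and none of the 4 brighter ones, with a median of -0.50, passed. Neurog2 differed by 1.35 at levels of -5.08 and -3.73, and Pou3f2 by a bound of 2.07. Neurod4, Myt1 and Insm1 were below background on both arrays. Rest, the repressor of neuronal genes, differed by 0.33, and Ptbp1 and Ptbp2, which exchange during neuronal splicing, by 0.05 and -0.18. Snai1 and Snai2, factors of mesenchymal identity, differed by 1.46 and 1.07. Synaptic vesicle genes had 4 of 17 higher (none with normexp and 8 of 21 with no background filter), beside 16.3% of all genes. Vamp2 and Rab3a both differed by -0.83. In the neuropeptide list 9 of 20 were higher (6 with normexp) and 2 lower, Cck first, with Penk at 1.80, Vgf at 2.83 and Scg2 at -3.86. Only 3 of the 20 were brighter genes, of which 2 were higher. Axon guidance genes were lower in 9 of 29 and higher in 2. Sema4d differed by -3.49, Sema3c by -2.34 and Plxnd1 by -1.66, and the netrin receptor Unc5b was higher by 2.55.

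At the 2-fold threshold, markers of other cell types that a fibroblast culture could hold gave no list as uniform as that of macrophages. All 17 skeletal and cardiac muscle genes had a difference above 0, 10 of them by 2-fold, but only 2 were brighter genes. The summed level of that list was 4.54 in MEF and 18.2 at 3 dpi. Of 10 endothelial genes 2 were higher and 3 lower. The summed level of the 12 endothelial genes was 3.11 in MEF and 4.36 at 3 dpi, Tie1 and Erg were below background on both arrays, and Cdh5 differed by -1.22 and Pecam1 differed by 0.69. Of 8 mural genes Cspg4 was 9.31-fold higher, while Kcnj8 was 38.6-fold lower and Abcc9 differed by -1.86. The mural list sum was 26.3 in MEF and 11.1 at 3 dpi, and its median turned from -0.65 to 0.26 with the mean over probes. The differences of the Mcam probes ranged from -2.02 to 1.93. Of 17 epithelial genes 10 were higher and 0 lower, with a median of 1.56, but 1 was a brighter gene, at -0.35. Cdh1, Epcam and Grhl2 were below background on both arrays, Krt19 differed by 2.67 and Dsp by 2.75, and the epithelial sum was 5.96 and 7.55. Schwann and neural crest, mast cell, lymphocyte and erythroid lists had sums of 4.88 and 4.46, 0.354 and 0.613, 19.7 and 19.1, and 0.941 and 0.676 in MEF and at 3 dpi. The mast cell genes Kit and Ms4a2 were below background on both arrays. The part of these cells in the differences above was not tested.

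**Figure D3:**
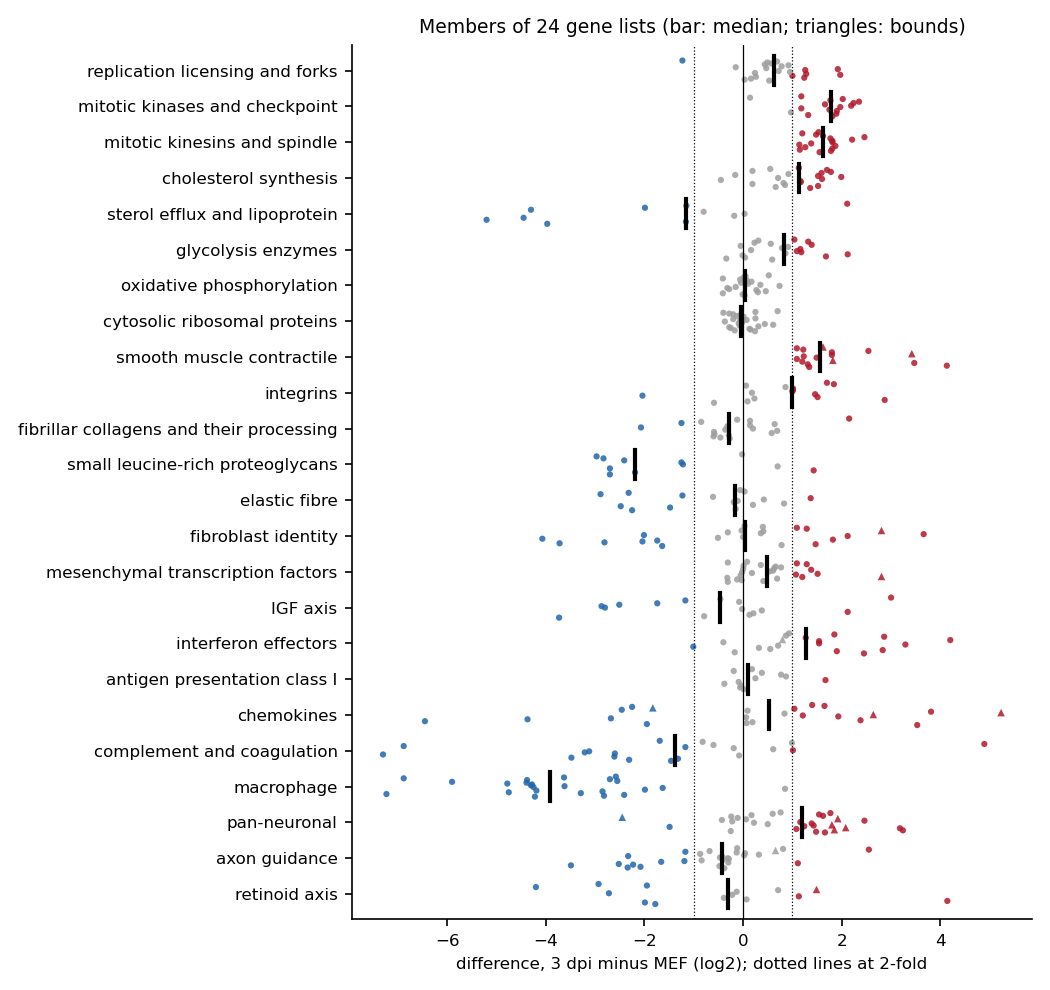
Differences between 3 dpi and MEF (x axis, log2) for the members of 24 gene lists, 1 point per gene with the list median as a bar; triangles are bounds and dotted lines mark 2-fold. Most mitotic and all contractile members lie right of the 2-fold line, 23 of 24 macrophage members lie left of it around a median of -3.91, and oxidative phosphorylation and ribosomal genes lie between the dotted lines.

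The place of 3 dpi among the 5 arrays of MEF and treated fibroblasts varied between lists, in a description chosen after the values were seen. Over all genes, 1570 of the 2956 higher genes (53.1%) had their highest level at 3 dpi and 1012 of the 1780 lower genes (56.9%) had their lowest, and 461 of the lower genes (25.9%) were at least 2-fold below both 5 and 7 dpi. All 12 major urinary and Reg genes with a value were lower, with their lowest level at 3 dpi, and 10 of the 12 were at least 2-fold below both later arrays (83.3%). Reg3g read 0.89 in MEF, 1.77 at 1 dpi, -7.07 at 3 dpi, 0.36 at 5 dpi and 4.13 at 7 dpi. Mup genes are near-identical copies, so signal of 1 can be read by the probe of another and their values are not independent. In the fibroblast list 6 of the 7 lower genes and 5 of the 7 higher genes stood at least 2-fold apart from both 5 and 7 dpi, in the small leucine-rich proteoglycans 5 of the 8 lower genes did, and in the contractile list none of the 16 higher genes did. Col14a1 was back at 2.28 at 7 dpi, Cdkn1c at 4.60, and S100a4, high at 3 dpi, was down at 0.46. Each of these levels rests on 1 array.

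**Figure D4:**
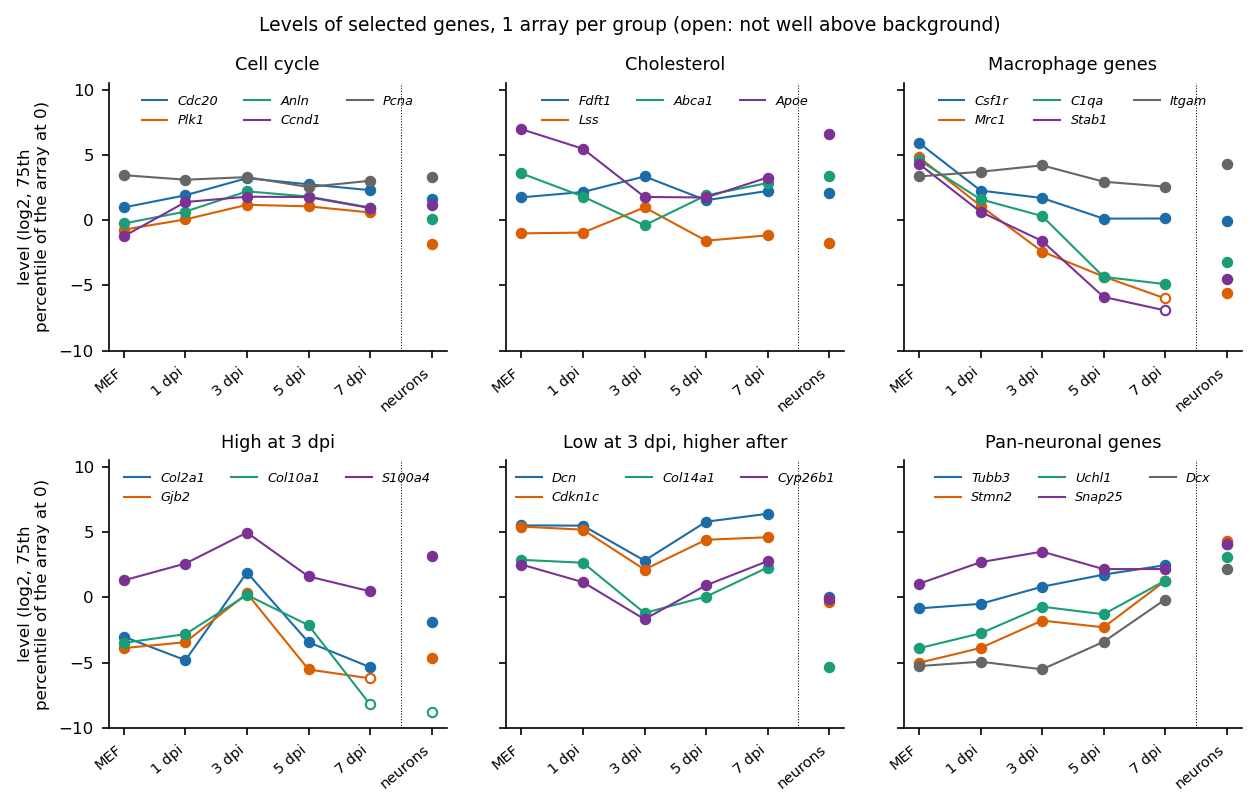
Levels (y axis, log2 with the 75th percentile of the array at 0) of selected genes on each of the 6 arrays (x axis), 1 array per group, with filled points well above background and lines joining MEF and the treated arrays only. Col2a1 and Gjb2 peak at 3 dpi, Dcn and Cyp26b1 have their lowest point there, and the macrophage gene Mrc1 goes down to -6.00 at 7 dpi, where it was not well above background.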

How the data were processed

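Each of the 6 samples was hybridised to 1 single-colour Agilent mouse array with Cy3. According to the submitters' processing notes the scans were read by Agilent Feature Extraction 11.0.1.1. Intensity values of the scanner output, as deposited, have the background subtracted. The authors' value table is on a log2 scale with the 75th percentile of each array at 0. It correlated with log2 values computed here from the scanner signals at r of 0.99999 or more over probes. No label names the software step behind that table.

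The log2 value of MEF was subtracted from that of 3 dpi. Of 39429 probes, 12 with only outlier spots on an array were left out. A probe counted as well above background by the scanner's flag. Accessions on the array matched 27223 probes to 20653 RefSeq genes, and 12194 probes stayed unnamed. The probe with the highest mean level over the 6 arrays stood for a gene. Where 1 array was not well above background, the difference was bounded by the higher of that array's lowest signal well above background and the probe's own signal. No spot was saturated. Replicate spots of 322 probes had a mean SD of 0.086 (log2).

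With 1 array per group no difference between groups was tested. The number of arrays limits the precision. The genes named are the 3 probes of Tet3, members of 86 gene lists, and the 15 genes furthest in each direction, over all genes and over brighter ones (measured on both arrays, higher value at least 0). Predicted genes, clones and probes with an outlier spot were left out of those rankings, and a few genes that meet the rule are not reported here. The comparison, its lists and the naming rule were chosen with earlier results of these data known. Alternatives were scanner signals scaled here, normexp with an offset of 50 on median spot signals, quantile normalization, median centring, 2 other background filters, brighter genes, the mean over probes, a 4-fold threshold, and 2 other list summaries. The code that calls genes was tested on simulated data. Promoter sequences are those of RefSeq for GRCm38.p6. Python 3.11.15, numpy 2.4.6, pandas 2.3.3, matplotlib 3.10.9 and, for normexp, limma 3.58.1 in R 4.3.3 were used.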

Additional observations from a re-analysis of the deposited data

How the results depend on the processing

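The count of higher genes was the value that depended most on the processing. Against 2956 it was 1269 with normexp background correction, 1546 after quantile normalization, 1773 after centring on the median, 611 among brighter genes and 520 at a 4-fold threshold, and it was 3966 with no background filter. The count of lower genes, 1780, was 860 among brighter genes and 718 at 4-fold, and lay between 1500 and 2598 under the others. Of the higher genes 1260 were shared between the main setting and normexp, and 1532 with quantile normalization. The sign of a list median changed for 10 of 82 lists among brighter genes, where the epithelial list, with 1 member left, was at -0.35. It changed for 14 of 86 lists after centring on the median, 4 with quantile normalization, 2 with normexp, 2 with the mean over probes and 1 with either other background filter. Median centring shifts every measured difference by the same amount, which is larger than the median array error. Its count of 85 of 86 list medians moved by more than that error follows from this shift. Quantile normalization moved 23 list medians by more than that error, normexp 22 and the restriction to brighter genes 32 of 82. The epithelial median, reversed from 1.56 to -0.35 among brighter genes, comes on top of those 32. Scanner signals scaled here moved none. No paired analysis was possible because each group has 1 array.

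Dim genes limit this comparison: the median array error was 0.35 in the dimmest of 10 groups of genes and 0.20 in the brightest 6, and 1420 of the 1812 genes in the dimmest group were bounds. Scan, virus, Tet3 and medium are confounded, and a second culture of either group was not analysed here.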

Other observations

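Some gene groups outside the pathways above stood near MEF or moved in few members. Of 28 Hox genes, which mark position along the body axis, 7 were higher (4 with normexp) and 1 lower, with a median of 0.56. Over all genes 16.3% were higher and 9.82% lower. Hoxc6 differed by 0.59, Hoxa9 differed by 1.13 and Hoxa11 by 1.69, and Hoxd3 differed by -1.07. Of 26 mesenchymal transcription factors 7 were higher (3 after centring on the median) and 0 lower, among them Foxc2 (1.07), Meox1 (1.29) and Tbx18 (1.20), while Twist1, Tbx15 and Nr2f1 differed by -0.31, -0.32 and -0.31. Tubulin genes had 6 of 20 higher: Tubb6 read 3.28 and 4.76, and Tubb2b, Tubb4a and Tubb4b differed by 1.24, 1.47 and 1.44, while Tuba1a differed by 0.24. Kif1a, a motor of vesicle transport, was higher by 2.06. Among intermediate filaments nestin, Nes, differed by 1.72, and Lmna, the nuclear lamin A, read 2.68 and 4.26.

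Stress pathways differed from each other. The small heat shock protein Hspb1 read 2.16 in MEF, 3.80 at 1 dpi, 4.62 at 3 dpi and 2.29 at 7 dpi, 5.50-fold higher at 3 dpi. Hspb8 differed by 1.90 and Hspa1a by 2.62, whereas the constitutive Hspa8 differed by -0.31 and Hsp90ab1 by 0.37. Of 15 unfolded protein genes 2 were higher, and Hspa5 read 5.43 and 5.37. In the ATF4 list 4 of 18 were higher and 1 lower: Ddit3 differed by 1.76, Shmt2 by 1.58, Chac1 by 1.38 and Phgdh by 1.27, while Atf4 itself differed by -0.50. Oxidative stress genes had 1 of 16 higher, Nqo1 at 2.20, and 2 lower, Gpx3 at -2.60 and Gstm1 at -1.32. Of the clock genes Nr1d1 differed by 1.62, Bhlhe40 by 1.61 and Ciart by 1.99, Dbp by -1.06 and Arntl differed by 0.22. The iron exporter Slc40a1 and the zinc transporter Slc39a8 each differed by -2.02, and the phosphate transporter Slc20a1 was higher by 1.50.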
